A study of Mus musculus with 19 samples.

Results

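Chemokines are small secreted proteins that direct the movement of white blood cells, and the 10 described here are CC and CXC chemokines whose RNA was measured in Kupffer cells, the macrophages that live inside the blood vessels of the liver. The 10 genes (Ccl2, Ccl3, Ccl4, Ccl24, Cxcl1, Cxcl2, Cxcl10, Cxcl13, Cxcl16 and Pf4) were taken by mouse symbol from the 33919 gene identifiers of the deposited table, whatever their values, and all 10 passed the filter on low values. Bulk RNA sequencing gave 19 libraries in 3 groups, all from livers of female wild-type C57BL/6 mice. MCD_MoKCs (n = 7) were CLEC2+ TIMD4- cells, called monocyte-derived, of mice kept for 4 weeks on feed without methionine and choline (the MCD diet). MCD_EmKCs (n = 6) were CLEC2+ TIMD4+ cells, called embryo-derived, of mice on the same diet, and Chow_EmKCs (n = 6) were embryo-derived cells of mice on chow. No group of monocyte-derived cells on chow was analysed here. Origin was assigned by the TIMD4 gate and not by a genetic tracer, and the labels do not say which libraries come from separate animals, so p-values measure the spread between these samples, which may be technical.

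Chemokines act through receptors on the cells they attract. CCL2 draws monocytes through CCR2, CCL3 and CCL4 draw monocytes and lymphocytes, CXCL1 and CXCL2 draw neutrophils through CXCR2, CXCL10 draws activated T cells and NK cells through CXCR3, CCL24 draws eosinophils through CCR3, CXCL13 draws B cells through CXCR5, and CXCL16 is a membrane-bound ligand of CXCR6. In the liver, Kupffer cells are an early source of several of these proteins during injury and steatohepatitis, the fatty liver disease that the MCD diet models. Many inflammatory chemokine genes are switched on within a short time of macrophage activation by NF-kB, a transcription factor that binds the kappa B motif.

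Total reads per library lay between 11642240 and 30983487, with 14643 to 16847 genes detected. Timd4, the gene of the sort marker, averaged 400.2 ± 161 normalised reads (reads divided by the size factor of the library) in MCD_MoKCs, 7491 ± 720.0 in MCD_EmKCs and 10586 ± 2097 in Chow_EmKCs (SD). The gate sets the low level in MCD_MoKCs. It does not set the difference between the embryo-derived groups, a log2 fold change of -0.48 with the diet (limma adjusted p = 0.191). Of 10 Kupffer cell markers none was at 0 in any group, and their summed level was 128699 to 167444 normalised reads in MCD_MoKCs, 415830 to 458468 in MCD_EmKCs and 472527 to 563482 in Chow_EmKCs. All 10 of these markers, Timd4 among them, were lower in MCD_MoKCs than in MCD_EmKCs, a direction called for 4.9% of all genes tested. Reads of mitochondrial genes were 0.244 to 0.729% in MCD_MoKCs, 0.155 to 0.317% in MCD_EmKCs and 0.511 to 1.05% in Chow_EmKCs. Some libraries stood apart on principal components of all genes. Within MCD_MoKCs, libraries 1 to 3 separated from libraries 4 to 7, and MCD_EmKCs libraries 1 and 2 separated from the other 4. Library numbers in the table run from 17 to 48. They were divided here at a gap into ranges up to 33 and from 37, although the labels do not call these ranges batches. The range up to 33 holds MCD_MoKCs libraries 1 to 5, so it mixes the sets that separated within that group. Differences within each range are given beside the pooled ones.

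The first comparison, MCD_EmKCs against Chow_EmKCs, addresses how the diet changed chemokine RNA in cells carrying the resident marker. Ccl2, Ccl4, Cxcl1, Cxcl2, Cxcl10 and Pf4 rose, by 1.79 to 4.78 times as a ratio of mean normalised reads, while Ccl3, Ccl24, Cxcl13 and Cxcl16 did not pass the test. Thus 6 of 10 chemokines were higher and 0 lower at a limma adjusted p under 0.05, in a comparison where 2.5% of all 14875 genes tested were higher and 1.58% lower. None was lower at an unadjusted p under 0.05 or with edgeR or DESeq2 either, and 7 were higher unadjusted, 5 with edgeR and 6 with DESeq2. For 4 of the 10 (Ccl2, Ccl4, Cxcl2 and Pf4) every MCD_EmKCs library lay above every Chow_EmKCs library, which held for 1.55% of all genes tested. The median log2 fold change of the 10 was 1.10, and that of all genes -0.04. Since RNA was measured in pools of sorted cells, a difference in the share of cells making a transcript and a difference in RNA per cell cannot be told apart.

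The second comparison, MCD_MoKCs against MCD_EmKCs, addresses how the TIMD4- cells differ from the TIMD4+ cells of mice on the same diet. Here the chemokines divided: Ccl3, Ccl4, Cxcl1, Cxcl2 and Pf4 were higher in MCD_MoKCs, whereas Ccl24 and Cxcl13 were lower. Ccl2, Cxcl10 and Cxcl16 did not pass the test. All 5 higher and both lower chemokines had groups that did not overlap, against a background of 2.62% of genes tested without overlap upward and 2.25% downward. At the adjusted threshold, 5.64% of all genes were higher and 4.9% lower. The 10 had a median log2 fold change of 0.68, beside 0.02 over all genes.

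The third comparison, MCD_MoKCs against Chow_EmKCs, combines the difference in diet with the difference in gate, which cannot be told apart in it. It shares its libraries with the other comparisons, so it gives no separate evidence. Of the 10, 7 rose (Ccl2, Ccl3, Ccl4, Cxcl1, Cxcl2, Cxcl10 and Pf4) and 2 fell (Ccl24 and Cxcl13), beside 8.68% of all genes higher and 8.08% lower. Groups did not overlap for 6 of the 7 and for both that fell, with 4.48% and 3.5% of all genes tested as background. The median was 2.03 for the chemokines and -0.01 for all genes.

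**Figure D1:**
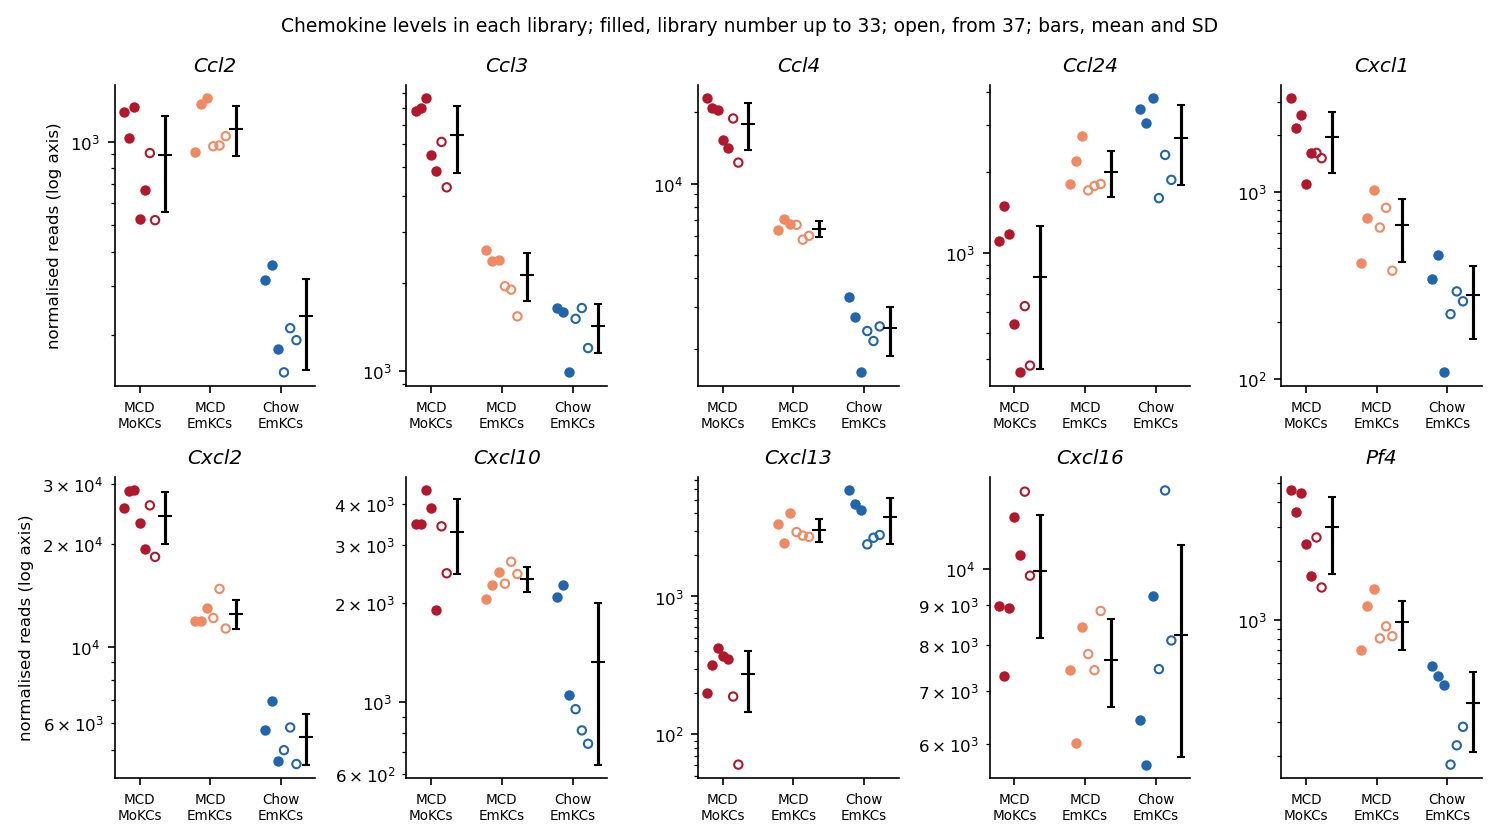
Normalised reads (log axis) of the 10 chemokines in each of the 19 libraries, with MCD_MoKCs left, MCD_EmKCs in the middle and Chow_EmKCs right. Filled points are libraries numbered up to 33, open points those from 37, and bars give mean and SD. Ccl4 and Cxcl2 form 3 steps without overlap, and Cxcl13 is 60.4 to 423 in MCD_MoKCs and at least 2387 in every other library. Every pair of groups overlaps for Cxcl16.

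Cxcl1 and Cxcl2 encode the neutrophil attractants of mouse macrophages and lie near each other on chromosome 5 (mm10; Cxcl1, ENSMUSG00000029380, 90891241 to 90893115, plus strand; Cxcl2, ENSMUSG00000058427, 90903871 to 90905938, plus strand). Promoter windows of 250 bases upstream of the RefSeq transcription start were found for 6 of the 10 genes. Those of Cxcl1 and Cxcl2 are shown with Cxcl10, which also holds kappa B matches, and with Cxcl13, which ran in the other direction in MCD_MoKCs and holds none. They are written 5′ to 3′ on the strand of the gene (RefSeq, GRCm38.p6, the same assembly as mm10), with letters matching a searched motif in capitals.
Cxcl1: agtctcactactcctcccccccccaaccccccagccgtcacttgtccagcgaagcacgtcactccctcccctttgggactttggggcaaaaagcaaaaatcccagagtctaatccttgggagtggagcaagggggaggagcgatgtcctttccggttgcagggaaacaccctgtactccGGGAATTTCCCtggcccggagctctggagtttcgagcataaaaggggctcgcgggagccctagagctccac
Cxcl2: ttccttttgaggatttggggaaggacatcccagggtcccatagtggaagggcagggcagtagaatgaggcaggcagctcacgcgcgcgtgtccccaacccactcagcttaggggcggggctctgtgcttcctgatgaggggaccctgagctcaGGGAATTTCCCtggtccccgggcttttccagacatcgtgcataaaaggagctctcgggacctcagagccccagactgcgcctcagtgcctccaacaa
Cxcl10: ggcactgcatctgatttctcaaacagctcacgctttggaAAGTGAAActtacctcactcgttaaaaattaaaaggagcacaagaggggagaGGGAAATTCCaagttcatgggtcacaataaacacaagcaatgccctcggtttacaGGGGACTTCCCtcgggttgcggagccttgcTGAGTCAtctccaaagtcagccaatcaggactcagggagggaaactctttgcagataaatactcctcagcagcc
Cxcl13: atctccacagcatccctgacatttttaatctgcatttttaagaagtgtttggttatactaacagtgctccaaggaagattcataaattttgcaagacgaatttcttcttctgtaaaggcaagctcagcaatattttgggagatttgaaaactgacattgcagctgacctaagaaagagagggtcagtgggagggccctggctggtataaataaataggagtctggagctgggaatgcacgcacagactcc
The windows are chr5:90890995-90891244 (plus strand) for Cxcl1, chr5:90903649-90903898 (plus) for Cxcl2, chr5:92348890-92349139 (minus) for Cxcl10 and chr5:95956689-95956938 (plus) for Cxcl13. On both strands the kappa B consensus, its form GGGAATTTCC that the Cxcl1 and Cxcl2 windows share, the interferon regulatory factor core AANNGAAA and the AP-1 form TGANTCA were searched. GGGAATTTCC began 71 bases before the Cxcl1 start and 97 bases before the Cxcl2 start, and overlapping kappa B matches run together in the capitals. Among 32851 RefSeq windows of the same length, 0.0852% held GGGAATTTCC and 7.25% held the kappa B consensus. GGGAATTTCC was read from the Cxcl1 and Cxcl2 windows themselves. Its presence in both was thus fixed in advance, and its low share elsewhere is no evidence about these genes. In the Cxcl10 window kappa B matches began 159, 104 and 103 bases before the start, AANNGAAA (21.3% of windows) at 211 and TGANTCA (6.75%) at 74. Ccl3 held AANNGAAA at 219 and none of the others, and Cxcl13 and Pf4 held none of the 4 motifs, which says only that these letters are not in these windows. Ccl3 and Pf4, also without a kappa B match, were higher in MCD_MoKCs than in MCD_EmKCs. A link between motif and direction was not tested.

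Cxcl2 had 18338 to 28687 normalised reads in MCD_MoKCs (median 25421), 11314 to 14779.8 in MCD_EmKCs (median 12042) and 4541 to 6940.1 in Chow_EmKCs (median 5344). The 3 groups were stacked without overlap, monocyte-derived cells highest and chow cells lowest. In MCD_EmKCs it rose over Chow_EmKCs by 1.21 on the log2 scale (SE 0.13, limma adjusted p = 1.08e-06), with 1.11 among libraries numbered up to 33 and 1.32 among those from 37. MCD_MoKCs lay higher again, by 0.94 on the log2 scale over MCD_EmKCs (SE 0.13, adjusted p = 9.24e-06; 1.01 and 0.78 in the library ranges). The log2 difference of MCD_MoKCs from Chow_EmKCs was 2.15 (SE 0.13; 2.12 and 2.10 in the ranges).

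Cxcl1 had 1101 to 3149.95 normalised reads in MCD_MoKCs (median 1609), 378 to 1023 in MCD_EmKCs (median 681) and 108 to 459.9 in Chow_EmKCs (median 276). Every MCD_MoKCs library was above every embryo-derived one, and 4 of 6 MCD_EmKCs libraries were above all Chow_EmKCs libraries. The log2 fold change of MCD_EmKCs over Chow_EmKCs was 1.29 (SE 0.31, adjusted p = 0.0149). It was 1.39 and 1.18 within the library ranges, where fits with fewer libraries no longer passed (adjusted p = 0.214 up to 33 and 0.0852 from 37; 0.0033 to 0.214 over all alternatives). MCD_MoKCs exceeded MCD_EmKCs by 1.56 (SE 0.30, adjusted p = 0.000722; 1.56 and 1.41 in the ranges). The adjusted p was 0.0507 in the fit of libraries up to 33 and 1.08e-05 to 0.0507 over all alternatives. From Chow_EmKCs the difference was 2.85 (SE 0.30; 2.95 and 2.60 in the ranges).

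Digestion of the liver and sorting can themselves induce early response genes, and a list of such genes moved with part of these results. Of 12 isolation-response genes tested, 7 were higher and 0 lower in MCD_EmKCs against Chow_EmKCs, with a median log2 fold change of 0.66 (10 and 0 at an unadjusted p under 0.05, 7 and 0 with edgeR and with DESeq2). In MCD_MoKCs against MCD_EmKCs, 3 were higher and 2 lower, with a median of 0.04. Their summed level was 386621 to 563756 normalised reads in MCD_MoKCs, 504961 to 699406 in MCD_EmKCs and 340594 to 475181 in Chow_EmKCs, and none was at 0. Dusp1, Fos and Jun made up much of that sum. The means of Atf3, Btg2, Fos, Fosb, Ier3, Nr4a1 and Socs3 were highest in MCD_MoKCs and lowest in Chow_EmKCs. Those of the others tested, Dusp1, Egr1, Ier2, Jun and Junb, were highest in MCD_EmKCs. Fos and Fosb were not called in any comparison, and Ier3 was called only in MCD_MoKCs against Chow_EmKCs. Ier3 averaged 1861 ± 442 normalised reads in MCD_MoKCs, 1313 ± 269.7 in MCD_EmKCs and 814 ± 266 in Chow_EmKCs. The part of isolation in the chemokine differences was not tested.

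Ccl3 and Ccl4, which encode the macrophage inflammatory proteins MIP-1 alpha and beta, are neighbours on chromosome 11 on opposite strands (Ccl3, ENSMUSG00000000982, 83647844 to 83649355, minus; Ccl4, ENSMUSG00000018930, 83662584 to 83664683, plus). Ccl4 had 12259.5 to 22919 normalised reads in MCD_MoKCs (median 18819), 5799 to 7070.04 in MCD_EmKCs (median 6549) and 1597 to 3327 in Chow_EmKCs (median 2441). As with Cxcl2, no library of one group reached the range of the next. The log2 fold change was 1.43 both for MCD_EmKCs over Chow_EmKCs (SE 0.16, adjusted p = 2.07e-06) and for MCD_MoKCs over MCD_EmKCs (SE 0.16, adjusted p = 3.27e-07). Within the library ranges the first was 1.47 and 1.39, and the second 1.45 and 1.30. MCD_MoKCs had 7.27 times the mean of Chow_EmKCs (log2 fold change 2.86, SE 0.16; 2.91 and 2.69 in the ranges).

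Ccl3 passed the test between the MCD groups and not for the diet; the difference between these contrasts was not tested. It had 4268 to 8631 normalised reads in MCD_MoKCs (median 6111), 1540.15 to 2608 in MCD_EmKCs (median 2169) and 989 to 1649.5 in Chow_EmKCs (median 1551). MCD_MoKCs stood clear of both other groups, and 5 of 6 MCD_EmKCs libraries were above every Chow_EmKCs library. Over MCD_EmKCs it was higher in MCD_MoKCs by 1.57 on the log2 scale (SE 0.18, adjusted p = 6.44e-07; 1.46 and 1.51 in the library ranges). The diet difference was 0.58 (SE 0.19) and did not pass (adjusted p = 0.0857), with 0.84 among libraries up to 33, which did not overlap, and 0.31 among those from 37. Over Chow_EmKCs, MCD_MoKCs were higher by 2.15 (SE 0.18; 2.30 and 1.83 in the ranges). Per kb of exon, the ratio of Ccl4 to Ccl3 was 2.76 to 3.57 in MCD_MoKCs, 2.85 to 4.54 in MCD_EmKCs and 1.53 to 2.42 in Chow_EmKCs. The ratio thus separated both MCD groups from chow cells, and did not separate the MCD groups from each other.

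T cells and NK cells also make Ccl3 and Ccl4. Of 10 T and NK cell markers tested, 6 were higher in MCD_MoKCs than in MCD_EmKCs and 0 lower with limma, 3 and 0 with edgeR, 4 and 0 with DESeq2, and 10 and 0 at an unadjusted limma p under 0.05. All 12 of the list summed to 986 to 1569 normalised reads in MCD_MoKCs, 204 to 518 in MCD_EmKCs and 130 to 237 in Chow_EmKCs. Most of the mean sum in each group was Ccl5, which is also counted among the other chemokine genes and averaged 779 ± 202 in MCD_MoKCs, 251 ± 114 in MCD_EmKCs and 109 ± 34.1 in Chow_EmKCs. Cd8a and Trac were at 0 in every MCD_EmKCs library and Ncr1 in every Chow_EmKCs library, and none was at 0 throughout MCD_MoKCs. The part of these cells in the Ccl3 and Ccl4 differences was not tested.

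Ccl2 encodes the main attractant of CCR2+ monocytes (ENSMUSG00000035385, chromosome 11, 82035571 to 82037453, plus strand). It had 519.9 to 1339.5 normalised reads in MCD_MoKCs (median 909), 917 to 1435 in MCD_EmKCs (median 1007) and 146 to 359 in Chow_EmKCs (median 201). All 13 MCD libraries were above all chow libraries, and the MCD groups overlapped. Ccl2 had the largest diet fold change of the 10 in embryo-derived cells, 2.30 on the log2 scale (SE 0.27, adjusted p = 2.63e-06; 2.16 and 2.45 in the library ranges). Between MCD_MoKCs and MCD_EmKCs the log2 fold change was -0.39 (SE 0.26, adjusted p = 0.409; -0.42 and -0.53 in the ranges). It was 0.14 when only MCD_MoKCs libraries 1 to 3 stood for that group and -0.78 when only libraries 4 to 7 did, neither past the threshold. Against Chow_EmKCs, MCD_MoKCs were higher by 1.92 (SE 0.26, adjusted p = 4.21e-06; 1.74 and 1.92 in the ranges).

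Cxcl10 encodes the CXCR3 ligand IP-10, an interferon-inducible chemokine (ENSMUSG00000034855, chromosome 5, 92346638 to 92348889, minus strand). It had 1902 to 4389 normalised reads in MCD_MoKCs (median 3459), 2054 to 2664 in MCD_EmKCs (median 2363) and 744 to 2267 in Chow_EmKCs (median 997). Chow libraries were spread over the widest ratio, and 4 of 6 MCD_EmKCs libraries were above all of them. The diet log2 fold change was 0.98 (SE 0.24, adjusted p = 0.0175). It was 0.41 among libraries up to 33, where the groups overlapped, and 1.56 among those from 37, where they did not. The call was lost with edgeR (0.84, adjusted p = 0.0652), without variance trend (0.98, 0.0637), in libraries up to 33 (0.41, 0.621), without Chow_EmKCs library 5 (0.88, 0.0523) and without library 6 (0.85, 0.0538), each given as log2 fold change and adjusted p, in a range of p of 0.00141 to 0.621 over all alternatives. MCD_MoKCs did not differ from MCD_EmKCs past the threshold (0.43, SE 0.23, adjusted p = 0.284; 0.54 and 0.24 in the ranges). From Chow_EmKCs they differed by 1.41 (SE 0.23, adjusted p = 6.79e-05; 0.95 and 1.80 in the ranges), with 6 of 7 libraries above all chow libraries.

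Reads of Cxcl10 also bear on Art3, an ADP-ribosyltransferase family gene on the opposite strand that contains Cxcl10 (92331827 to 92414628). Their exons share 133 bases, yet the Art3 value was 1.01 to 1.14 times that of Cxcl10 in all 19 libraries. Whether counting used strand is not given in the sources used here, so reads of the pair cannot be told apart. Of 12 interferon-response genes, 0 rose and 4 fell in MCD_EmKCs against Chow_EmKCs. In MCD_MoKCs against MCD_EmKCs 0 rose and 3 fell. At an unadjusted p under 0.05, 0 were higher in the first and 1 in the second, and edgeR and DESeq2 called 0 higher in both. The part of interferon in the Cxcl10 levels was not tested.

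Pf4 encodes platelet factor 4, also called CXCL4, a chemokine stored in platelets and also made by macrophages (ENSMUSG00000029373, chromosome 5, 90772435 to 90773383, plus strand). It had 1463 to 4586 normalised reads in MCD_MoKCs (median 2637), 701 to 1432 in MCD_EmKCs (median 875) and 182 to 583 in Chow_EmKCs (median 374). The groups did not overlap. Pf4 rose by 1.46 on the log2 scale in MCD_EmKCs over Chow_EmKCs (SE 0.30, adjusted p = 0.00409), with 1.03 in libraries up to 33, where the fit did not pass (adjusted p = 0.197), and 1.90 in those from 37. Over MCD_EmKCs it was higher in MCD_MoKCs by 1.53 (SE 0.29, adjusted p = 0.000712), with 1.56 and 1.21 in the library ranges and an adjusted p of 0.0659 from 37. Over all alternatives the adjusted p ran 0.000436 to 0.197 for the diet and 4.62e-06 to 0.0659 for the gate. With MCD_MoKCs libraries 4 to 7 left out, the second difference was 2.13, and without libraries 1 to 3 it was 1.07, still past the threshold. MCD_MoKCs differed from Chow_EmKCs by 2.99 (SE 0.29, adjusted p = 2.17e-08; 2.59 and 3.10 in the ranges).

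The 9 other platelet and megakaryocyte markers summed to 41.0 to 595 normalised reads in MCD_MoKCs, 33.3 to 349 in MCD_EmKCs and 27.9 to 197 in Chow_EmKCs, and 3 passed the filter on low values. Of these 3, 1 was higher and 0 lower in MCD_EmKCs against Chow_EmKCs (Treml1) and likewise in MCD_MoKCs against MCD_EmKCs (Itgb3). These counts were the same unadjusted and with DESeq2, and edgeR called neither gene. Ppbp, the platelet chemokine that lies beside Pf4, averaged 7.72 normalised reads in MCD_MoKCs, 4.62 in MCD_EmKCs and 5.32 in Chow_EmKCs, and Gp6 was at 0 in every MCD_MoKCs library and Gp1bb in every Chow_EmKCs library. Within MCD_MoKCs the list summed to 41.0 to 141 in libraries 1 to 3 and 218 to 595 in libraries 4 to 7, where Pf4 was 3542 to 4586 and 1463 to 2637. Treml1 and Itgb3 made up most of the mean sum in MCD_MoKCs. The part of platelets in the Pf4 differences was not tested.

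Cxcl13 and Ccl24 were the chemokines that were lower in MCD_MoKCs. Cxcl13 encodes the CXCR5 ligand that brings B cells into follicles (ENSMUSG00000023078, chromosome 5, 95956951 to 95961068, plus strand). It had 60.4 to 423 normalised reads in MCD_MoKCs (median 319), 2448 to 4049 in MCD_EmKCs (median 2845) and 2387 to 5869.8 in Chow_EmKCs (median 3513). A wide gap separated monocyte-derived cells from every embryo-derived library, and the embryo-derived groups overlapped. MCD_MoKCs had 0.0900 times the mean of MCD_EmKCs, which is -3.66 on the log2 scale (SE 0.33, adjusted p = 2.83e-08; -3.31 and -4.70 in the library ranges). The diet log2 fold change was -0.25 (SE 0.34, adjusted p = 0.786), and its sign differed between the library ranges (-0.60 and 0.10). Against Chow_EmKCs, MCD_MoKCs differed by -3.91 (SE 0.33, adjusted p = 3.80e-09; -3.91 and -4.60 in the ranges).

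Ccl24 encodes eotaxin-2, an eosinophil attractant (ENSMUSG00000004814, chromosome 5, 135569937 to 135573049, minus strand). It had 356 to 1490.45 normalised reads in MCD_MoKCs (median 630.0), 1711 to 2727 in MCD_EmKCs (median 1811) and 1600.47 to 3791 in Chow_EmKCs (median 2692). As with Cxcl13, monocyte-derived cells lay below all embryo-derived libraries, here by a smaller margin. The log2 fold change of MCD_MoKCs from MCD_EmKCs was -1.48 (SE 0.29, adjusted p = 0.000974; -1.43 and -1.85 in the library ranges). It was -0.67 without MCD_MoKCs libraries 4 to 7, no longer past the threshold (adjusted p = 0.0945), and -2.09 without libraries 1 to 3 (4.07e-06 to 0.0945 over all alternatives). For the diet it was -0.37 (SE 0.30, adjusted p = 0.601; -0.63 and -0.11 in the library ranges). From Chow_EmKCs, MCD_MoKCs differed by -1.85 (SE 0.29, adjusted p = 3.93e-05; -2.06 and -1.97 in the ranges), and by -1.04 without libraries 4 to 7 and -2.46 without libraries 1 to 3.

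Cxcl16 encodes a membrane-bound chemokine that also acts as a scavenger receptor (ENSMUSG00000018920, chromosome 11, 70453983 to 70459984, minus strand). It had 7309 to 12523 normalised reads in MCD_MoKCs (median 9799), 6019.5 to 8839.5 in MCD_EmKCs (median 7614.5) and 5644 to 12567 in Chow_EmKCs (median 7784). All groups overlapped. None of its log2 fold changes passed: -0.07 for MCD_EmKCs over Chow_EmKCs (SE 0.16, adjusted p = 0.895), 0.37 for MCD_MoKCs over MCD_EmKCs (SE 0.16, adjusted p = 0.155) and 0.30 for MCD_MoKCs over Chow_EmKCs (SE 0.16, adjusted p = 0.222). The last passed without Chow_EmKCs library 5 (0.43, adjusted p = 0.0470, the lowest of 0.0470 to 0.865 over all alternatives). In the library ranges the log2 differences of Cxcl16 were 0.058 and -0.19, 0.37 and 0.47, and 0.43 and 0.28, in the same order of comparisons. Zmynd15, a zinc finger gene on the opposite strand, shares 552 exon bases with Cxcl16 and had 0.224 to 0.531 times its value, so reads in the shared stretch cannot be told apart either.

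**Figure D2:**
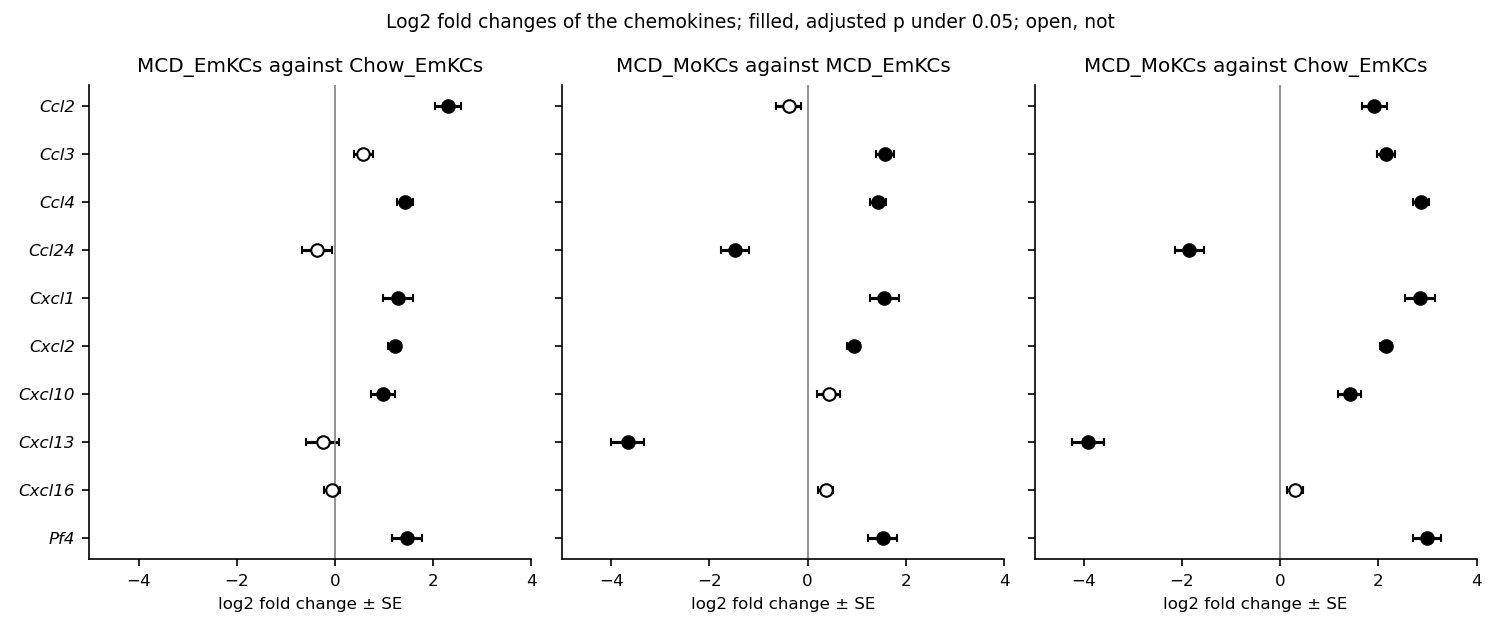
Log2 fold changes ± SE of the 10 chemokines in the 3 comparisons (limma; filled, adjusted p under 0.05; open, not). The largest rise with diet is Ccl2 at 2.30, and between the MCD groups Cxcl13 at -3.66 lies farthest from 0.

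Levels of different genes were compared per kb of exon. The exon bases of Cxcl1, Cxcl2 and Cxcl10 (1875, 2068 and 2252) cover the whole span of these genes, introns included. Their per-kb levels may therefore be understated, and their places in the order depend on the gene models. Comparisons of 1 gene between groups do not depend on its length. In MCD_MoKCs Ccl4 led with 26985 ± 6012 normalised reads per kb (SD), without overlap with Cxcl2 at 11702 ± 2008, and Ccl3 (8424 ± 2205), Pf4 (4120 ± 1742) and Cxcl16 (3289 ± 583) followed, with neighbours overlapping. Cxcl13 was the last, at 238 ± 112. In MCD_EmKCs Ccl4 (9790 ± 732) and Cxcl2 (6051 ± 599) again came first, each without overlap with the next, and Ccl3, Cxcl13 and Cxcl16 were close together at means of 2785, 2647 and 2536 per kb. In Chow_EmKCs Ccl4 (3714 ± 874), Cxcl13 (3285 ± 1206), Cxcl16 (2727 ± 815), Cxcl2 (2627 ± 440) and Ccl24 (2073 ± 684) each overlapped their neighbour in the order. The first gap between neighbours there lay between Ccl3 (1868 ± 357) and Cxcl10 (585 ± 300). With these lengths Cxcl1 was lowest in both embryo-derived groups, at 355 ± 131 per kb in MCD_EmKCs and 149 ± 63 in Chow_EmKCs.

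**Figure D3:**
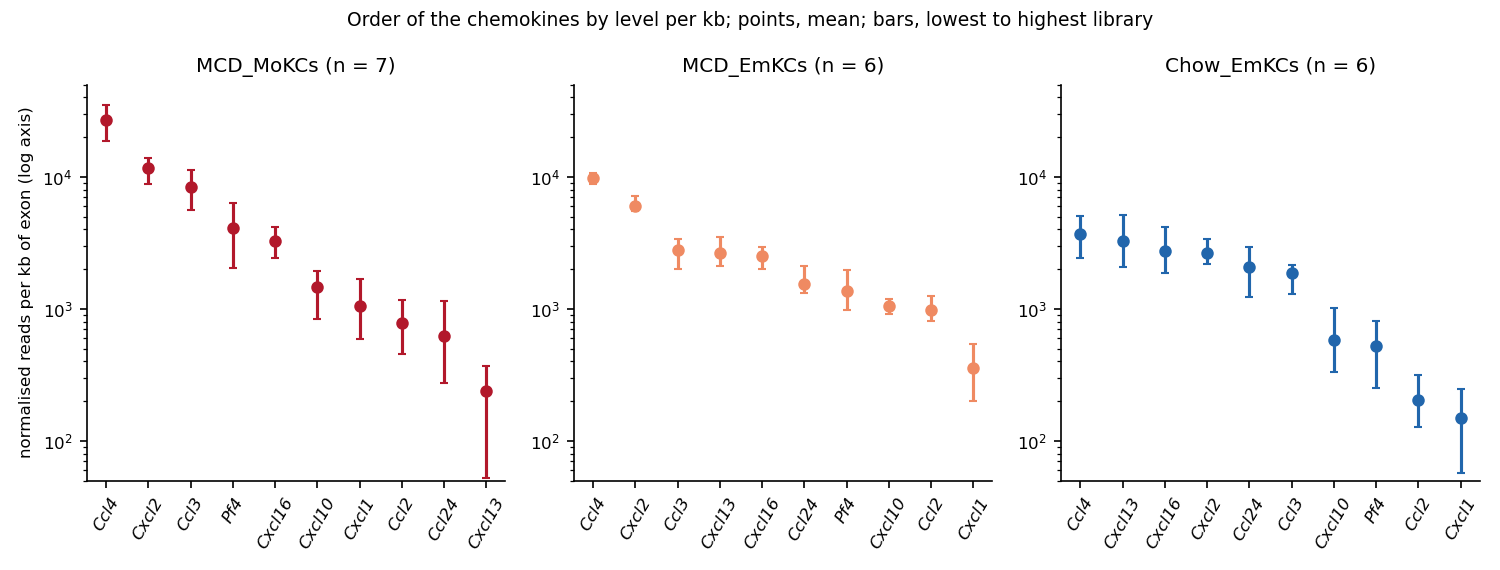
Mean normalised reads per kb of exon (log axis; bars, lowest to highest library) of the 10 chemokines, ordered from highest to lowest within each group. With these exon lengths, which cover the whole gene for Cxcl1, Cxcl2 and Cxcl10, Ccl4 comes first in all 3 groups. Cxcl13 is then second in Chow_EmKCs, in the middle in MCD_EmKCs and last in MCD_MoKCs.

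The summed chemokine reads were 0.283 to 0.436% of all reads in MCD_MoKCs (median 0.396), 0.167 to 0.235% in MCD_EmKCs (median 0.215) and 0.126 to 0.166% in Chow_EmKCs (median 0.146). Each group lay wholly above the next. Parts of the summed level per kb rest on the same gene lengths. Of that level, Ccl4 made up 45.9% in MCD_MoKCs, 33.7% in MCD_EmKCs and 21.0% in Chow_EmKCs (group means). Cxcl13 made up 0.408% in MCD_MoKCs, 9.06% in MCD_EmKCs and 18.1% in Chow_EmKCs, and Ccl24 made up 1.01% in MCD_MoKCs, 5.29% in MCD_EmKCs and 11.6% in Chow_EmKCs. Cxcl2 made up 20.1% in MCD_MoKCs, 20.8% in MCD_EmKCs and 14.9% in Chow_EmKCs. The ratio of Cxcl2 to Cxcl13 per kb was 30.3 to 169 in MCD_MoKCs, 1.79 to 2.98 in MCD_EmKCs and 0.540 to 1.21 in Chow_EmKCs, again without overlap. Parts of a whole are not independent: Cxcl13 and Ccl24 made up less in MCD_EmKCs than in Chow_EmKCs, although their own reads did not pass the test there.

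**Figure D4:**
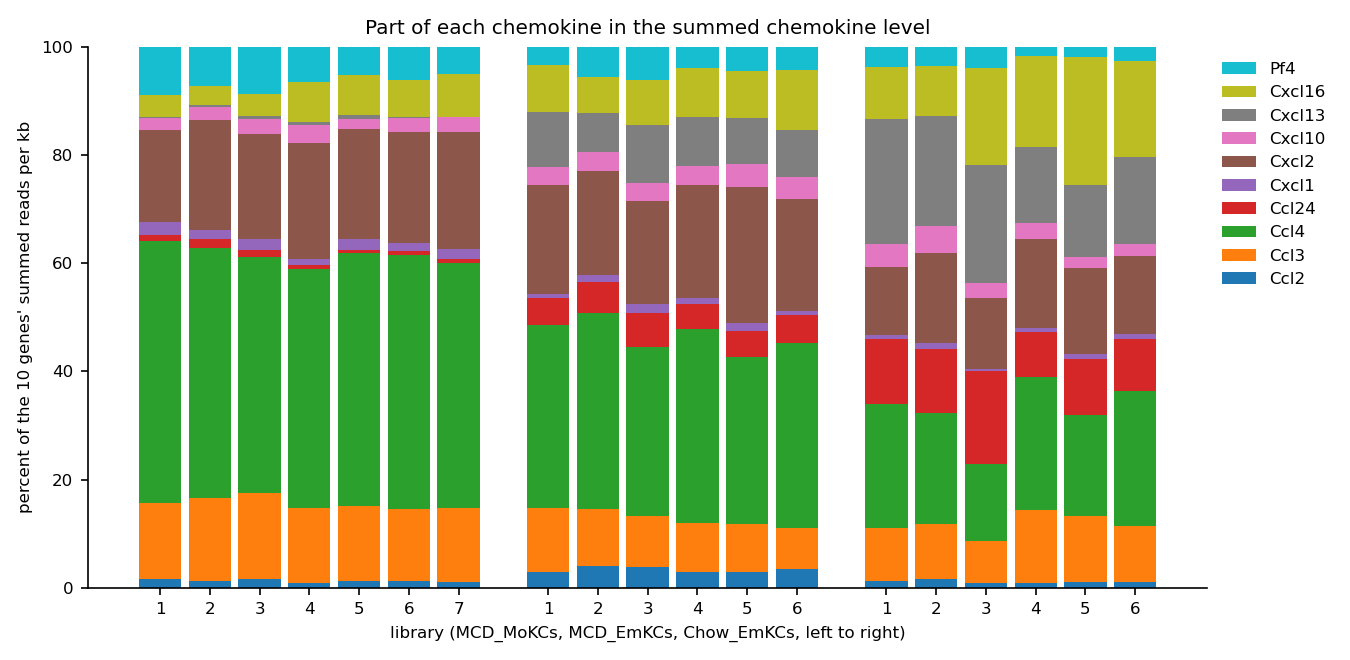
Percentage that each chemokine makes up of the summed normalised reads per kb of the 10 genes, 1 stacked bar per library, with MCD_MoKCs left, MCD_EmKCs in the middle and Chow_EmKCs right. On average Ccl4 takes 45.9% in MCD_MoKCs, 33.7% in MCD_EmKCs and 21.0% in Chow_EmKCs, and Cxcl13 takes 0.408% in MCD_MoKCs, 9.06% in MCD_EmKCs and 18.1% in Chow_EmKCs. The percentages depend on the gene lengths used.

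Chemokines also varied within groups. Between MCD_MoKCs libraries 1 to 3 and libraries 4 to 7, which were told apart on a component of all genes, these 10 included, 6 chemokines were higher without overlap in libraries 1 to 3 (Ccl2, Ccl3, Ccl4, Ccl24, Cxcl1 and Pf4) and Cxcl16 was lower. This is a description with no test, beside 7.65% of all genes tested higher and 6.95% lower without overlap. Ccl24 was 1107 to 1490.45 normalised reads in libraries 1 to 3 and 356 to 630.0 in libraries 4 to 7, and Ccl3 was 7811 to 8631 and 4268 to 6111. Mitochondrial reads were 0.534 to 0.729% in libraries 1 to 3 and 0.244 to 0.359% in libraries 4 to 7, and genes detected 15216 to 15705 and 16274 to 16847. The part of these in the chemokine spread was not tested. Among Chow_EmKCs, libraries up to 33 exceeded those from 37 without overlap for 4 chemokines (Ccl24, Cxcl10, Cxcl13 and Pf4), against 9.46% of all genes, and among MCD_EmKCs for 2 (Ccl3 and Ccl24), against 7.23%.

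**Figure D5:**
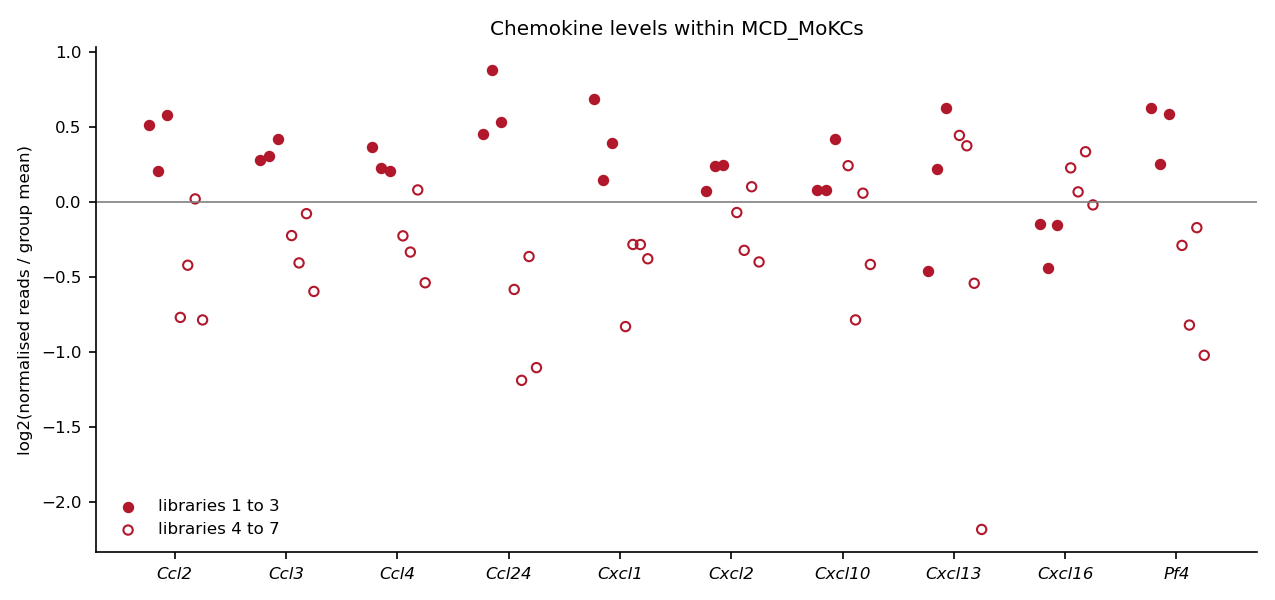
Level of each chemokine in the 7 MCD_MoKCs libraries as log2 of the ratio to the group mean, with libraries 1 to 3 as filled and 4 to 7 as open points. Ccl2, Ccl3, Ccl4, Ccl24, Cxcl1 and Pf4 are higher in libraries 1 to 3 and Cxcl16 is lower, without overlap.

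Other chemokine genes were read from a list of 28, of which 26 were in the table and 16 were tested. In MCD_EmKCs against Chow_EmKCs, 4 rose (Ccl5, Ccl7, Ccl9 and Cxcl3) and 0 fell, with a list median of 0.33 (5 and 1 unadjusted, 3 and 0 with edgeR, 4 and 0 with DESeq2). Ccl7, a CCR2 ligand like Ccl2, averaged 284 ± 110 normalised reads in MCD_MoKCs, 409 ± 89.2 in MCD_EmKCs and 90.3 ± 85.3 in Chow_EmKCs, a diet log2 fold change of 2.54 (SE 0.41). In MCD_MoKCs against MCD_EmKCs, 5 rose (Ccl5, Ccl9, Ccl22, Cxcl3 and Cxcl14) and Cx3cl1 fell, with a median of 0.16. There edgeR called 2 higher and 0 lower, and DESeq2 3 and 1. Ccl9, a CCR1 ligand of the mouse, averaged 6171 ± 2016 in MCD_MoKCs, 1441 ± 217 in MCD_EmKCs and 551 ± 160 in Chow_EmKCs. Cxcl3, a CXCR2 ligand, averaged 193 ± 65.1 in MCD_MoKCs, 51.7 ± 56.1 in MCD_EmKCs and 5.12 ± 10.2 in Chow_EmKCs. MCD_MoKCs against Chow_EmKCs had 5 higher and 1 lower (5 and 0 with edgeR and with DESeq2, 6 and 2 unadjusted). Ccl6 was abundant and not called in any comparison, at 13324 ± 2678 normalised reads in MCD_MoKCs, 13777 ± 2085 in MCD_EmKCs and 14471 ± 3050 in Chow_EmKCs. Ccl1, Ccl11, Ccl19, Ccl20 and Cxcl15 were at 0 in all 19 libraries.

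Receptors of these chemokines were also present in the sorted cells. Of 12 listed, 8 were tested, and Ccr1 and Ccr2 were higher in MCD_MoKCs than in MCD_EmKCs. Ccr2, the CCL2 receptor of monocytes, averaged 703 ± 202 normalised reads in MCD_MoKCs, 46.9 ± 36.6 in MCD_EmKCs and 9.999 ± 24.2 in Chow_EmKCs. Ccr1, a CCL3 receptor, averaged 1075 ± 109 in MCD_MoKCs, 35.4 ± 42.6 in MCD_EmKCs and 1.52 ± 2.37 in Chow_EmKCs. Ackr3 was at 0 in every library.

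Genes of NF-kB feedback and early cytokines were read as a list. Of 13, 6 rose and 0 fell in MCD_EmKCs against Chow_EmKCs, 4 rose and 0 fell in MCD_MoKCs against MCD_EmKCs, and 9 rose and 0 fell in MCD_MoKCs against Chow_EmKCs, with medians of 0.58, 0.27 and 0.86. With edgeR and with DESeq2 0 fell in each, and at an unadjusted p under 0.05 1 was lower in the second comparison and 0 in the others. Tnf and Nfkbia alone were called in both the first and the second comparison, and the means of the 13 did not all follow their order. Tnf averaged 8891 ± 1564 normalised reads in MCD_MoKCs, 3861 ± 572 in MCD_EmKCs and 1091 ± 485 in Chow_EmKCs. Nfkbia, which encodes the inhibitor of NF-kB that NF-kB itself induces, averaged 42405 ± 5187 in MCD_MoKCs, 32437 ± 3341 in MCD_EmKCs and 23326 ± 3145 in Chow_EmKCs.

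For each chemokine, the gene of most similar profile was the one with the smallest root mean square difference of centred log2 values over the 19 libraries, given as a description. Cxcl2 lay nearest to Ccrl2, an atypical chemokine receptor, at 0.245 (own deviation 0.910). Ccl2 lay nearest to Ccl7 (0.469), Ccl3 to the cell cycle inhibitor Cdkn1a (0.304), Ccl4 to the metalloproteinase Mmp19 (0.330) and Cxcl1 to Ccl4 (0.408). Pf4 lay nearest to Tnf (0.425) and Cxcl10 to the overlapping gene Art3 (0.0529). For the chemokines that were lower in MCD_MoKCs, the nearest were Ctla2b for Ccl24 (0.398) and Pcolce2 for Cxcl13 (0.580). Cxcl16 lay nearest to Zfp36 (0.221), close to its own deviation of 0.318. These genes share libraries and group differences with the chemokines.

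Markers of other cells in the liver differed between groups. Of 7 monocyte markers tested, 5 were higher and 0 lower in MCD_MoKCs against MCD_EmKCs (3 and 0 with edgeR and with DESeq2, 5 and 1 unadjusted), and the 8 listed summed to 4452 to 5833 normalised reads in MCD_MoKCs, 1203 to 1625 in MCD_EmKCs and 1853 to 3039 in Chow_EmKCs. Of 4 neutrophil markers tested, 1 was higher and 0 lower in that comparison (0 and 0 with edgeR, 3 and 0 with DESeq2, 3 and 0 unadjusted), and the 8 listed summed to 1514 to 4626 in MCD_MoKCs, 1927 to 2838 in MCD_EmKCs and 1887 to 3360 in Chow_EmKCs. Csf3r made up most of that sum, while S100a8 averaged 288 ± 342 in MCD_MoKCs, 63.2 ± 43.4 in MCD_EmKCs and 21.4 ± 32.4 in Chow_EmKCs. All 8 hepatocyte markers were lower in MCD_EmKCs than in Chow_EmKCs, with sums of 426 to 1082 in MCD_MoKCs, 464 to 2445 in MCD_EmKCs and 3368 to 10833 in Chow_EmKCs. Ly6c2 and Ngp were at 0 in every MCD_EmKCs library, and Vcan and Ngp in every Chow_EmKCs library. In MCD_MoKCs against MCD_EmKCs, 3 of 6 dendritic cell, 1 of 4 B cell, 0 of 6 stellate cell and 1 of 3 cholangiocyte markers were higher and none of them lower. At an unadjusted p under 0.05 these were 4, 2, 0 and 1 higher, and 1 stellate cell marker was lower, while edgeR called 1, 0, 0 and 1 and DESeq2 2, 0, 0 and 1 higher, and neither called any lower. Of 8 sinusoidal endothelial markers, 2 were higher and 3 lower. The cholangiocyte marker called with limma was Spp1, at 2741 ± 2141 normalised reads in MCD_MoKCs and 201 ± 235 in MCD_EmKCs. Krt7 and Tm4sf4 were not called, and Krt19, Epcam and Sox9 did not pass the filter on low values. Which cells the Spp1 reads came from was not tested. The part of any of these cells in the chemokine levels was not tested.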

How the data were processed

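Kupffer cells were sorted from collagenase-digested liver, and their RNA was amplified with SMART-seq, per the labels' protocols. STAR, DESeq2 and mm10 are named in the submitters' processing notes. For counting tool, annotation and strand use, nothing was given in the sources used here. The authors deposited 1 table of normalised read signal (33919 gene identifiers by 19 libraries, 29062 with a symbol), in which 100% of nonzero values are whole reads, within 0.001, times 1 step per library. Total reads were 11642240 to 30983487 per library. Reads without molecular identifiers are not independent molecules, so precision was taken from the spread between libraries.

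The 14875 genes that reached a value of 10 in 6 or more libraries entered limma 3.58.1 (R 4.3.3) on log2(value + 1), with trend and robust variances, 1 mean per group and no covariate. Fold changes on this scale understate those of low genes. P-values are two-sided and were adjusted over all these genes by Benjamini-Hochberg, with a threshold of 0.05. Alternatives were edgeR 4.0.16 (quasi-likelihood, TMM) and DESeq2 1.42.0 on recovered reads, TMM scaling, pseudocounts of 0.5 and 10, other filters, a fit of 2 groups, no trend, a replicate block, library-number ranges and each library left out. Leaving out the libraries that stood apart was chosen after seeing the data. The fit was also run on simulated data with the same dispersion for all genes and no subsets within groups. That setting differs from these libraries, so it does not check the results given here. The chemokines, lists, nearest-profile rule (1 gene per chemokine) and motifs were chosen with earlier results of these data known, so none of them gives independent support. Named list genes are examples of a list's count; Ccl6 was chosen after their values were seen. Per-kb values divide by the exon bases of GENCODE vM21 gene models. Promoters are from RefSeq (GRCm38.p6); 4 of 10 genes (Ccl2, Ccl4, Ccl24 and Cxcl16) were not matched.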

Additional observations from a re-analysis of the deposited data

How the results depend on the processing

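The 10 chemokines were recomputed under 35 alternatives. With the diet, 337 of 350 values kept their direction and side of the threshold. For MCD_MoKCs against MCD_EmKCs 346 of 350 did, and for MCD_MoKCs against Chow_EmKCs 349 of 350. Fold changes cannot move in fits that only leave out libraries of a group outside the comparison or change the filter or variance trend. Their direction there was fixed in advance, so these counts overstate how far the results were tested. The count called with the diet was 3 in libraries up to 33, against 6 in all libraries. All genes called with the diet were 179 in libraries up to 33 and 263 from 37, against 607. For MCD_MoKCs against MCD_EmKCs they were 870 and 565, and 1010 without MCD_MoKCs libraries 1 to 3, against 1568. For MCD_MoKCs against Chow_EmKCs they were 1257 and 1288, against 2493. These fits used fewer samples. Log2 fold changes of Cxcl16 and Cxcl13 with the diet, and of Ccl2 between MCD groups, changed sign and passed the threshold in no alternative. Over all alternatives Cxcl16 ran from -0.19 to 0.066, Cxcl13 from -0.60 to 0.10 and Ccl2 from -0.78 to 0.14. Cxcl16 with the diet was 0.058 in libraries up to 33, 0.027 without MCD_EmKCs libraries 1 and 2, 0.00165 without MCD_EmKCs library 2 and 0.066 without Chow_EmKCs library 5 (-0.17 to 0.066 leaving out 1 library). Cxcl13 with the diet was 0.10 from 37, and Ccl2 between the MCD groups was 0.14 without MCD_MoKCs libraries 4 to 7; the cause was not tested. Leaving out 1 library gave 5 to 6, 7 to 7 and 9 to 10 chemokines called in the 3 comparisons, in the order of the report, and 468 to 620, 1288 to 1596 and 2193 to 2590 genes. Deviations of same-numbered libraries of different groups were weakly correlated (r of -0.07 to 0.08 over 18 pairs). The same-numbered library was the best match in 11 of 36 matches of a library to another group. The labels do not say whether the numbers pair samples, and weak correlations cannot exclude it. With the replicate block 6, 7 and 9 chemokines and 608, 1658 and 2474 genes were called. On the recovered reads edgeR called 554, 1325 and 2086 genes and DESeq2 904, 1846 and 2588. With MCD_MoKCs at 2 libraries from 37, that range limits what could be called.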

Other observations

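Genes of proteins that act on chemokines or their messages were read from short lists. Of 3 genes of proteases that cut chemokines or their membrane stalks, 0 passed the limma or edgeR test in any of the 3 comparisons. In MCD_MoKCs against MCD_EmKCs 1 was higher at an unadjusted p under 0.05 and with DESeq2, and in MCD_MoKCs against Chow_EmKCs 1 with DESeq2. Adam10, the protease known to release CXCL16 from the cell surface, averaged 3547 ± 592 normalised reads in MCD_MoKCs, 4165 ± 1091 in MCD_EmKCs and 4118 ± 1469 in Chow_EmKCs (SD). Adam17 averaged 3165 ± 616 in MCD_MoKCs, 3278 ± 576 in MCD_EmKCs and 2825 ± 389 in Chow_EmKCs. Of 3 genes of proteins that bind AU-rich elements in short-lived messages, Zfp36l2 passed in MCD_MoKCs against Chow_EmKCs, at 6192 ± 1402 in MCD_MoKCs, 5218 ± 1169 in MCD_EmKCs and 3986 ± 1098 in Chow_EmKCs. Zfp36, the best known of them, averaged 37592 ± 7351 in MCD_MoKCs, 34285 ± 2110 in MCD_EmKCs and 32266 ± 5550 in Chow_EmKCs and was not called.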
